A study of Mus musculus with 6 samples.

Results

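The proteasome genes of mouse colon tumors were taken as the protein-coding genes named Psma, Psmb, Psmc, Psmd, Psme, Psmf or Psmg with a number. This name pattern, which uses no measured value, gave 48 of the 54532 genes listed. All 3 Tmem173fl/fl tumors and all 3 Tmem173iΔmye tumors came from mice given 3 cycles of AOM/DSS, a carcinogen followed by a colitis-inducing agent. In both groups Tmem173, the gene encoding the innate immune adaptor STING, is flanked by loxP sites, and both received tamoxifen (TAM) after the cycles. The Tmem173iΔmye mice also carry the Lyz2-driven, TAM-inducible Cre (Lzym-Creert2 in the deposited design), which is active in myeloid cells, whereas the Tmem173fl/fl mice, labelled WT, lack it. The mice were on a C57BL/6N background. The study's methods give 5 to 6 weeks as the age at the AOM injection for mice that received TAM around that injection. They state no separate age for mice that received TAM after the cycles, as here. RNA was made from whole tumors, so deletion in myeloid cells is seen through all the other cells of the tumor, and fewer cells of a type and less RNA per cell cannot be told apart. Nothing in the labels says whether a sample is 1 tumor or several of 1 mouse.

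The proteasome degrades ubiquitin-tagged proteins. Its barrel-shaped core particle (20S) is built from rings of alpha subunits, which gate the entrance, and beta subunits, of which Psmb6 (beta1), Psmb7 (beta2) and Psmb5 (beta5) cut the protein chain. Interferon-gamma induces the replacement subunits Psmb9 (beta1i), Psmb10 (beta2i) and Psmb8 (beta5i), which form the immunoproteasome, and the subunits Psme1 and Psme2 of the activator PA28, and the peptides made this way feed MHC class I presentation. The ATPases (Psmc) and non-ATPase subunits (Psmd) form the regulatory particle (19S) that recognizes, unfolds and feeds in substrates, and the transcription factor NRF1 raises the constitutive subunits when proteasome activity falls.

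The libraries held 15329810 to 16533732 counted reads each. Tmem173 had 1705 to 2911 counts in Tmem173fl/fl and 1953 to 2291 in Tmem173iΔmye tumors (log2 fold change 0.0015, SE 0.24), so whole-tumor RNA does not check the genotype labels. Y-linked genes had 2655 to 3547 counts in 2 Tmem173iΔmye tumors (replicates 1 and 2) and in replicate 1 of Tmem173fl/fl, and 2 or fewer in the rest, so sex was unbalanced. Summed markers of epithelium lay between 11580 and 12670 CPM (reads scaled to the library total after TMM adjustment) in Tmem173fl/fl and between 12260 and 14010 in Tmem173iΔmye tumors. As described with the results, Tmem173iΔmye replicate 1 stood apart from the other tumors in most proteasome genes.

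Promoter windows, 250 bases before to 50 after a gene's start, were available from RefSeq (GRCm38.p6) for 40 of the 48 genes. The stretches shown are those in which a response motif of interferon or of the NRF1 family was found near the start of an interferon-inducible or active-site gene, since these are the genes whose levels are compared. Capitals mark the motif, and each stretch reads 5′ to 3′ on the strand of its gene.
Psmb8, chr17:34198088-34198116, plus strand: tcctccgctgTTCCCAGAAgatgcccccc
Psme1, chr14:55578493-55578522, plus strand: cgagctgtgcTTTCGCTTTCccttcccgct
Psmb5, chr14:54618024-54618052, minus strand: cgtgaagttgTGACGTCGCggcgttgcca
Psmb6, chr11:70525338-70525366, plus strand: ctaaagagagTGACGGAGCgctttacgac
In Psmb8 the letters match TTCNNNGAA, the gamma-activated site, 97 to 89 bases before the RefSeq start and inside an exon of another annotated Psmb8 transcript. In Psme1 they match GAAANNGAAA, the interferon-stimulated response element, read on the opposite strand, 9 to 18 bases after the start and in an exon. In Psmb5 and Psmb6 they match TGACNNNGC, the core of the antioxidant response element to which NRF1 also binds, 47 to 39 and 9 to 1 bases before the start.

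Searched on both strands, TTCNNNGAA was found in 8.29% of all 32817 promoter windows and in 3 of the 43 windows of the proteasome genes (Psmb8, Psmd2 and Psmg1). GAAANNGAAA was found in 3.43% of all windows and in 5 of the 43 (Psmb3, Psmd4, Psmd9, Psme1 and Psmg4). TGACNNNGC was found in 12.4% of all windows and in 6 of the 43 (Psmb5, Psmb6, Psmc6, Psmd12, Psmd9 and Psme4). The windows of Psmb9, Psmb10 and Psme2 held none of the 3 strings of letters. A match is a string of letters and not a measured binding site.

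Which proteasome genes differed after deletion of STING in myeloid cells was asked first of the subunits that interferon-gamma induces. Psmb8, Psmb9, Psmb10, Psme1 and Psme2 all had a higher mean level in Tmem173iΔmye than in Tmem173fl/fl tumors, by log2 fold changes of 0.57 to 1.70, but for 4 of these 5 genes the groups overlapped. In all 5, the tumor with the highest level was Tmem173iΔmye replicate 1 and the tumor with the lowest was Tmem173fl/fl replicate 2. Of all genes tested, 24.9% were highest in Tmem173iΔmye replicate 1 and 27.1% were lowest in Tmem173fl/fl replicate 2. Values are given as FPKM, the read count per length of the gene and depth of the library, for replicates 1, 2 and 3 in this order. No gene in the table passed an adjusted p under 0.05 in edgeR's quasi-likelihood test (0 of 16426 genes tested, 0%), and the smallest adjusted p of any gene, shared by each of these 5, was 0.742.

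Psmb9 (GRCm38, as all coordinates here, chromosome 17, 34181988 to 34187764, minus strand) encodes beta1i, which reduces cutting after acidic residues. Its level was 10.5, 3.01 and 5.18 FPKM in Tmem173fl/fl and 42.6, 7.04 and 11.5 FPKM in Tmem173iΔmye tumors. Tmem173iΔmye replicate 1 was far above the rest, and Tmem173fl/fl replicate 1 was higher than Tmem173iΔmye replicate 2. The log2 fold change of Tmem173iΔmye over Tmem173fl/fl was 1.70 (SE 0.71), with an unadjusted p under 0.05. It was 0.57 without Tmem173iΔmye replicate 1, 1.37 without Tmem173fl/fl replicate 2 and 1.58 without Tmem173fl/fl replicate 3, and in each of these cases the unadjusted p was no longer under 0.05. Leaving out Tmem173fl/fl replicate 1, Tmem173iΔmye replicate 2 or Tmem173iΔmye replicate 3 gave 2.31, 2.11 or 1.98, with an unadjusted p under 0.05. Of the exon bases of Psmb9, 5.79% are shared with Tap1 on the opposite strand, and whether the counting used strand is not given in the sources used here.

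Psmb8 (chromosome 17, 34197721 to 34201454, plus strand), the gene with the TTCNNNGAA match shown above, encodes beta5i, the inducible chymotrypsin-like subunit. Its level was 22.9, 10.6 and 15.6 FPKM in Tmem173fl/fl and 89.4, 12.7 and 21.8 FPKM in Tmem173iΔmye tumors. Apart from Tmem173iΔmye replicate 1, the tumors of the 2 groups lay in the same range. The log2 fold change was 1.33 (SE 0.67), and without Tmem173iΔmye replicate 1 it was 0.071. Psmb8 shares 14.7% of its exon bases with the annotated gene Gm20496. Psmb10 (chromosome 8, 105935735 to 105938444, minus strand) encodes beta2i, the trypsin-like subunit. Its level was 65.7, 41.6 and 42.5 FPKM in Tmem173fl/fl and 146, 50.9 and 53.9 FPKM in Tmem173iΔmye tumors. Psmb10 had a log2 fold change of 0.74 (SE 0.42), or 0.065 without Tmem173iΔmye replicate 1. As for Psmb8, Tmem173fl/fl replicate 1 was above Tmem173iΔmye replicates 2 and 3.

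Psme2 (chromosome 14, 55587441 to 55591113, minus strand) encodes the beta subunit of PA28, the ring that opens the gate of the core particle. Its level was 49.3, 28.1 and 30.4 FPKM in Tmem173fl/fl and 125, 53.4 and 52.0 FPKM in Tmem173iΔmye tumors. It was the 1 gene of these 5 in which every Tmem173iΔmye tumor was above every Tmem173fl/fl tumor, although the gap between Tmem173fl/fl replicate 1 and the lower Tmem173iΔmye tumors was small. The log2 fold change was 1.09 (SE 0.38), with an unadjusted p under 0.05. Without Tmem173iΔmye replicate 1 it was 0.55, and without Tmem173fl/fl replicate 2 or 3 it was 0.93 or 0.98, and in each of these cases the unadjusted p was no longer under 0.05.

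Psme2 has a near-identical copy, Psme2b (chromosome 11, 48945354 to 48946190), with which reads can be confused, and the levels of both are therefore uncertain. Psme2b was at 59.1, 46.0 and 38.1 FPKM in Tmem173fl/fl and at 106, 38.5 and 49.7 FPKM in Tmem173iΔmye tumors, so its groups overlapped, and it had a log2 fold change of 0.44 (SE 0.37). With the counts of both added, the log2 fold change was 0.87, still with an unadjusted p under 0.05. The groups then overlapped, since Tmem173fl/fl replicate 1 was above Tmem173iΔmye replicates 2 and 3 in the added counts. Psme1 (chromosome 14, 55578123 to 55581529, plus strand), the gene with the GAAANNGAAA match on the opposite strand shown above, encodes the alpha subunit of PA28. Its level was 72.7, 42.7 and 53.9 FPKM in Tmem173fl/fl and 129, 61.9 and 61.0 FPKM in Tmem173iΔmye tumors (log2 fold change 0.57, SE 0.33). Tmem173fl/fl replicate 1 was above Tmem173iΔmye replicates 2 and 3, and without Tmem173iΔmye replicate 1 the log2 fold change was 0.12.

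**Figure D1:**
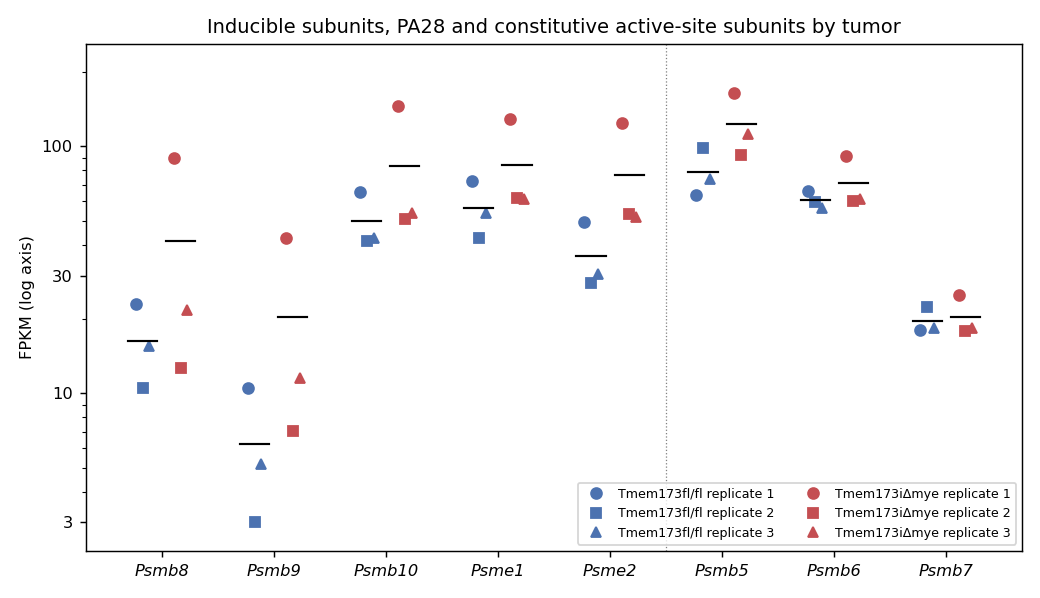
FPKM (log axis) of the inducible subunits, the PA28 subunits and the constitutive active-site subunits in the 6 tumors, 1 point per tumor, with a line at each group's mean. Tmem173iΔmye replicate 1 is the highest point of each of these 8 genes, and only in Psme2 do all 3 Tmem173iΔmye tumors lie above all 3 Tmem173fl/fl tumors.

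The constitutive active-site subunits were compared with their inducible counterparts. Psmb5 (chromosome 14, 54614119 to 54618022, minus strand), the constitutive chymotrypsin-like subunit, had the highest mean level of all 48 genes at 101 FPKM. Its level was 63.5, 98.4 and 73.8 FPKM in Tmem173fl/fl and 165, 91.9 and 113 FPKM in Tmem173iΔmye tumors, so that Tmem173fl/fl replicate 2, the lowest tumor for the inducible genes, was above Tmem173iΔmye replicate 2. The log2 fold change of Psmb5 was 0.65 (SE 0.24, unadjusted p under 0.05 and adjusted p = 0.742 from edgeR). It was 0.38 without Tmem173iΔmye replicate 1, 0.52 without Tmem173fl/fl replicate 1 and 0.61 without Tmem173fl/fl replicate 3, each without an unadjusted p under 0.05. The microRNA gene Mir686 covers 12.1% of the exon bases of Psmb5.

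Psmb6 (chromosome 11, 70525367 to 70527858, plus strand), the constitutive caspase-like subunit, was at 66.1, 59.7 and 56.1 FPKM in Tmem173fl/fl and at 91.1, 60.3 and 61.4 FPKM in Tmem173iΔmye tumors. Apart from Tmem173iΔmye replicate 1, these tumors lay close together, and the log2 fold change was 0.22 (SE 0.18). Psmb7 (chromosome 2, 38588036 to 38644087, minus strand), the constitutive trypsin-like subunit, was at 18.0, 22.4 and 18.4 FPKM in Tmem173fl/fl and at 25.1, 17.9 and 18.3 FPKM in Tmem173iΔmye tumors. Psmb7 had a log2 fold change of 0.059 (SE 0.17), which turned to -0.11 without Tmem173iΔmye replicate 1. Psmb7 shares 11.8% of its exon bases with Nek6.

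How much of each catalytic pair was the inducible subunit was expressed as its percentage of the summed FPKM of the pair in each tumor. Psmb9 made up 13.7%, 4.81% and 8.46% of the beta1 pair in Tmem173fl/fl and 31.9%, 10.5% and 15.8% in Tmem173iΔmye tumors, a difference of the means of 10.4 percentage points (exact two-sided permutation p = 0.2). Tmem173fl/fl replicate 1 lay between Tmem173iΔmye replicates 2 and 3. Psmb10 made up 78.5%, 65.0% and 69.8% of the beta2 pair in Tmem173fl/fl and 85.3%, 74.0% and 74.6% in Tmem173iΔmye tumors, a difference of 6.89 percentage points (exact two-sided permutation p = 0.3). It was the 1 pair in which the inducible subunit had the larger part of the FPKM in all 6 tumors. In counts, which are not divided by gene length, Psmb7 was above Psmb10 in Tmem173fl/fl replicate 2 (1145 against 1060) and in no other tumor. Psmb8 made up 26.5%, 9.68% and 17.4% of the beta5 pair in Tmem173fl/fl and 35.2%, 12.2% and 16.2% in Tmem173iΔmye tumors, a difference of 3.3 percentage points (exact two-sided permutation p = 0.7). In counts, Psmb8 was above Psmb5 in replicate 1 of Tmem173fl/fl (981 against 892) and of Tmem173iΔmye (3887 against 2354) and below it in the other tumors. Which subunit of a pair had the larger part thus depended on the gene lengths used for FPKM. The groups overlapped in all 3 pairs. Adjusted over the 3 pairs, the exact permutation p-values were 0.45, 0.45 and 0.7, and with 3 tumors per group the test cannot go below 0.1. The difference of the beta5 pair turned to -3.7 percentage points without Tmem173iΔmye replicate 1 and to -0.8 without Tmem173fl/fl replicate 2, and without Tmem173iΔmye replicate 1 that of the beta1 pair was 4.14 and that of the beta2 pair 3.21.

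**Figure D2:**
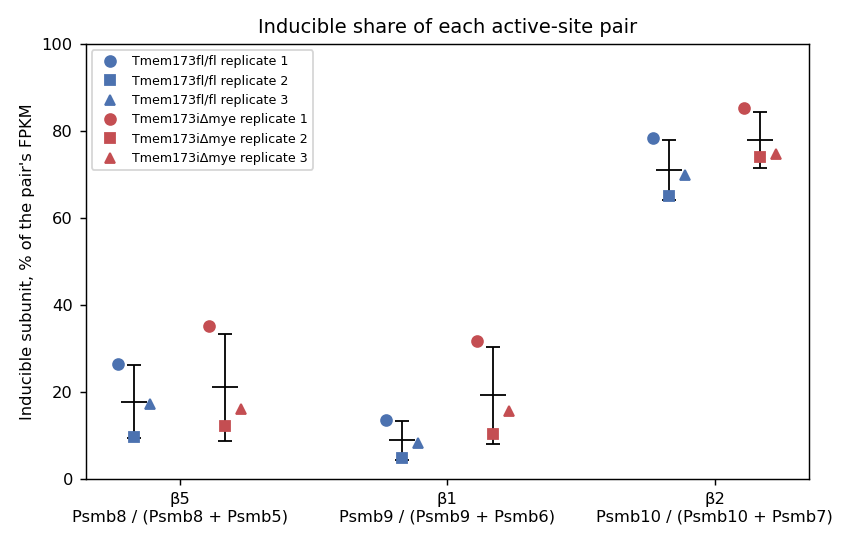
Percentage of the summed FPKM of each catalytic pair that came from the inducible subunit, 1 point per tumor, with the mean and SD of each group. Psmb10 lies between 65.0% and 85.3% of its pair, Psmb8 between 9.68% and 35.2% and Psmb9 between 4.81% and 31.9%, with overlapping groups in each.

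The other core subunits had smaller log2 fold changes. All 7 tested alpha subunits were above 0 in log2 fold change, with a median of 0.25 and a range of 0.095 to 0.35, and 0 of 7 had p under 0.05. Without Tmem173iΔmye replicate 1 the median was 0.017, and 2 of the 7 (Psma6 and Psma7) were below 0. Psma4 had the largest log2 fold change of them (0.35, SE 0.20). Psma6 had both the smallest (0.095, SE 0.14) and the highest mean level, 93.8 FPKM, and Psma3 had the lowest mean level, 25.2 FPKM. These subunits form the outer rings of the barrel, on which the activators dock. The 4 tested beta subunits without a catalytic site, Psmb1 to Psmb4, had a median log2 fold change of 0.24, from 0.12 in Psmb1, which also had their lowest mean level at 36.6 FPKM, to 0.34 in Psmb2, and of 0.03 without Tmem173iΔmye replicate 1. Psmb4 had the highest mean level of these, 97.1 FPKM. Psma8, the alpha subunit of the testis, was at 0.15 to 0.30 FPKM, and Psmb11, the beta5t subunit of the thymic cortex, was at 0 to 0.028 FPKM, and both were under the filter on low values and were not tested.

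In the regulatory particle, the 6 ATPases, which unfold the substrate, had a median log2 fold change of 0.17, or 0.058 without Tmem173iΔmye replicate 1. Psmc5 had the highest value (0.29, SE 0.16) and also the highest mean level of the ATPases, 92.6 FPKM, and Psmc6 had the lowest log2 fold change (-0.05, SE 0.12). Psmc2 had the lowest mean level, 22.9 FPKM, but its 3 Tmem173iΔmye tumors, at 27.5, 22.6 and 23.4 FPKM, were all above its Tmem173fl/fl tumors, at 21.6, 20.9 and 21.5 FPKM. The 14 non-ATPase genes had a median of 0.064, or 0.0074 without Tmem173iΔmye replicate 1, when 6 of them were below 0. Among these, Psmd7, a scaffold partner of the deubiquitinase Psmd14, was highest (0.24, SE 0.14), and Psmd1, a scaffold of the base, was lowest (-0.23, SE 0.19). Psmd1 was at 28.7 FPKM in Tmem173fl/fl replicate 2 and lower in each of the other 5 tumors. Psmd2, the other base scaffold, had the highest mean level of the non-ATPase genes, 79.0 FPKM, and Psmd9, an assembly chaperone of the base that shares 25.5% of its exon bases with Gm26745, had the lowest, 4.47 FPKM.

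The remaining activators and the inhibitor had values on both sides of 0. Psme3, the nuclear PA28 gamma, had a log2 fold change of 0.14 at an SE of 0.12 and a mean level of 51.0 FPKM. Psme4, the activator PA200, had -0.28 (SE 0.20), the lowest of all tested proteasome genes, and Psmf1, the inhibitor PI31, had -0.10 (SE 0.13) at a mean level of 6.72 FPKM. The 4 chaperones that assemble the alpha ring, Psmg1 to Psmg4, had a median of 0.31, or 0.088 without Tmem173iΔmye replicate 1. Psmg3 had the highest log2 fold change of these (0.37, SE 0.35) at the lowest mean level of all tested proteasome genes, 3.45 FPKM, Psmg2 had the lowest (0.22, SE 0.15), and Psmg4 had the highest mean level, 22.4 FPKM. This order rested on Tmem173iΔmye replicate 1, without which Psmg3 was at 0.0089 and Psmg4 at -0.093, and Psmg1 was highest at 0.22.

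**Figure D3:**
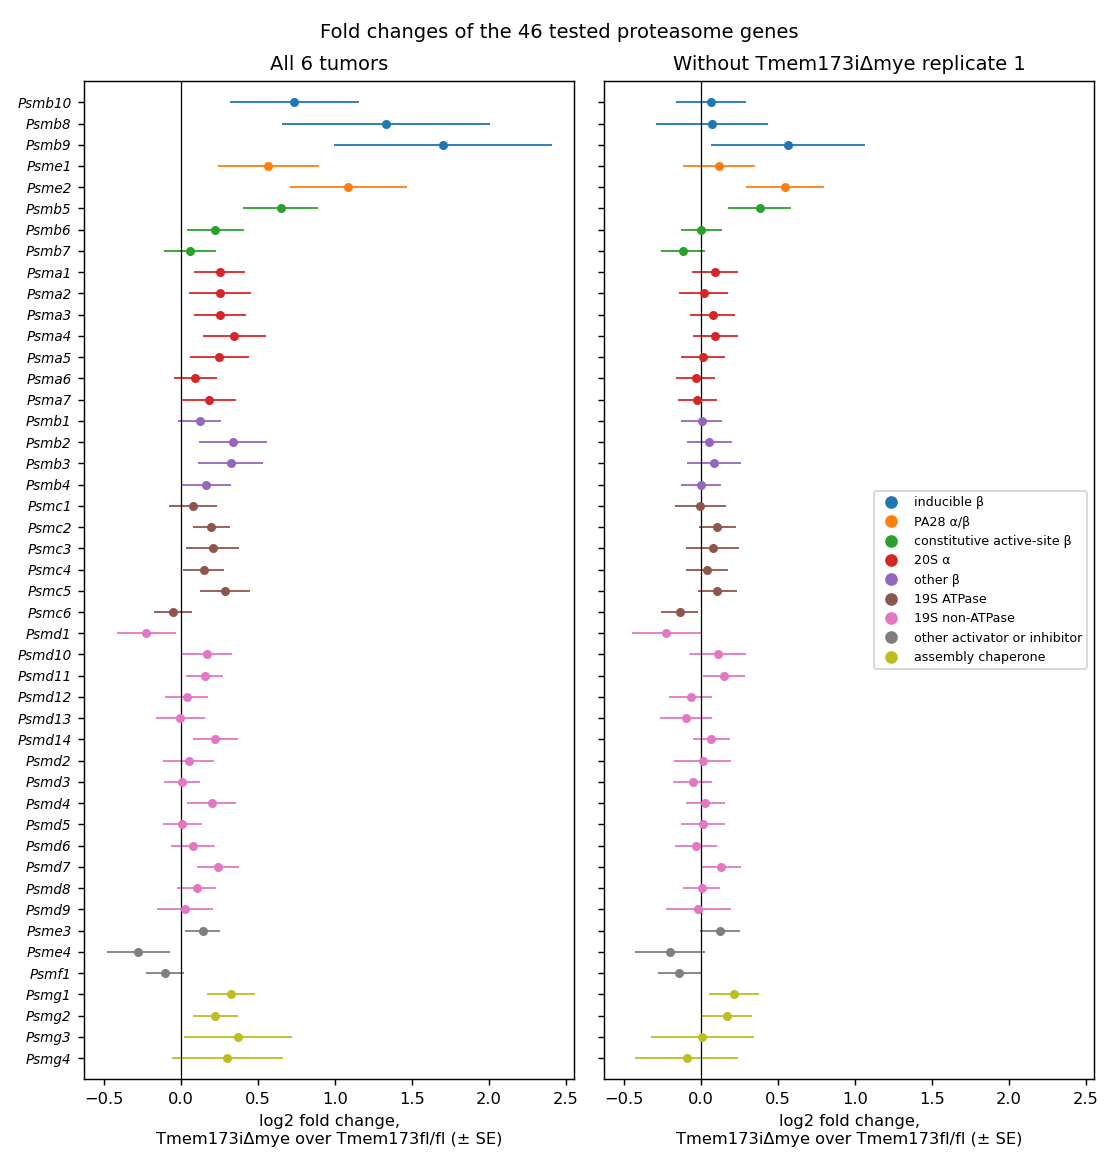
Log2 fold change (Tmem173iΔmye over Tmem173fl/fl, edgeR) of the 46 tested proteasome genes by class, with bars of 1 SE, in all 6 tumors (left) and without Tmem173iΔmye replicate 1 (right). Psmb9 (1.70), Psmb8 (1.33) and Psme2 (1.09) lie farthest to the right, and Psme4 (-0.28) farthest to the left in all 6 tumors, and without that tumor Psmb8 lies at 0.071.

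Of the 46 tested proteasome genes, 41 had a log2 fold change above 0, against 49.4% of all genes tested. The 5 below 0 were Psmc6, Psmd1, Psmd13, Psme4 and Psmf1. The median was 0.20 over the 46 genes, 1.09 over Psmb8, Psmb9, Psmb10, Psme1 and Psme2, 0.22 over Psmb5, Psmb6 and Psmb7, and 0.17 over the other 38, against -0.0042 over all genes. Without Tmem173iΔmye replicate 1, 31 of the 46 were above 0, and the medians were 0.12 over the 5 genes, 0.0018 over Psmb5, Psmb6 and Psmb7, and 0.014 over the other 38. Most of the size of these medians thus came with 1 tumor.

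Psmb9, Psme2 and Psmb5 had an unadjusted p under 0.05 and were higher in Tmem173iΔmye tumors, 3 of 46 against 3.23% of all genes, and 0 of 46 were lower with such a p, against 2.9%. With edgeR, Psmb9 and Psme2 also passed the limits used in the study, a log2 fold change of 1 or more in size with an unadjusted p of at most 0.05. Of all genes, 2.12% passed both limits with edgeR, 1.26% higher and 0.864% lower. The study used these limits with DESeq2, with which Psme2 alone of the proteasome genes passed both, and Psmb9 did not (unadjusted p = 0.0557 from DESeq2). Every Tmem173iΔmye tumor was above every Tmem173fl/fl tumor in 6 of 46 genes (Psme2, Psmc2, Psmc5, Psmd11, Psmg1 and Psmg2), against 6.03% of all genes, and below in 0 of 46, against 6.47%. With DESeq2, 28 genes of the table passed an adjusted p under 0.05, of which 0 were proteasome genes.

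The spread between tumors was widest in the inducible and PA28 genes. The highest tumor exceeded the lowest by 3.02-fold to 14.1-fold in FPKM in the 5 inducible and PA28 genes, with a median of 4.44-fold, and by 1.17-fold to 2.9-fold, with a median of 1.44-fold, in the other 41 tested proteasome genes. Of the 46 genes, 37 were highest in Tmem173iΔmye replicate 1, where 24.9% of all genes tested were highest. A further 7 were highest in Tmem173fl/fl replicate 2, where 26.6% of all genes tested were highest. Psmd9 was highest in Tmem173fl/fl replicate 1 and Psmd11 in Tmem173iΔmye replicate 3. In Tmem173fl/fl replicate 2, 20 of the 46 genes were lowest, against 27.1% of all genes tested. Summed over the 5 genes, the level was 466, 253 and 308 CPM in Tmem173fl/fl and 1152, 380 and 421 CPM in Tmem173iΔmye tumors. Summed over the other 43 proteasome genes it was 4428, 4642 and 4175 CPM in Tmem173fl/fl and 5601, 4452 and 4468 CPM in Tmem173iΔmye tumors. In both sums Tmem173iΔmye replicate 1 was the highest tumor, and the other 5 tumors overlapped between the groups.

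**Figure D4:**
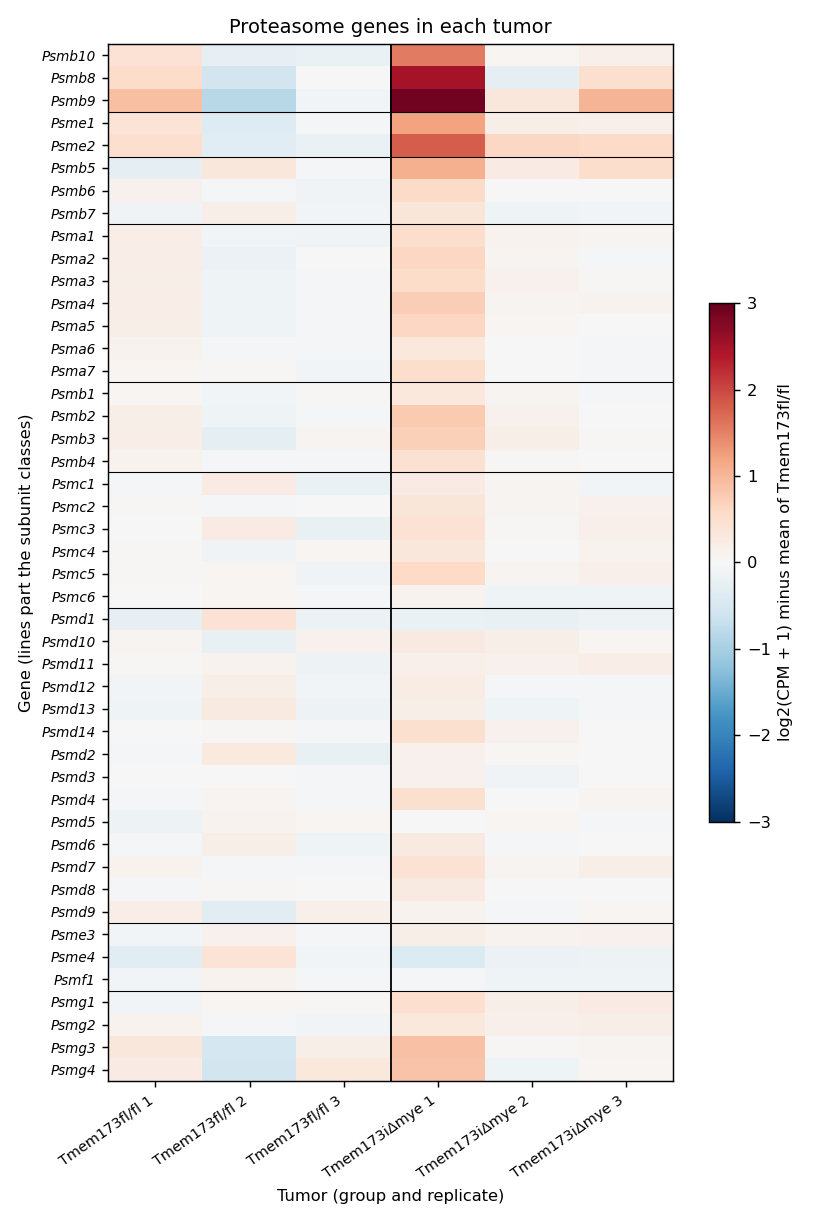
Level of the 46 tested proteasome genes in each tumor as log2(CPM + 1) minus the mean of the 3 Tmem173fl/fl tumors (colour), grouped by class. The column of Tmem173iΔmye replicate 1 is red for most genes and reaches 2.88 for Psmb9 and 2.49 for Psmb8.

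**Figure D5:**
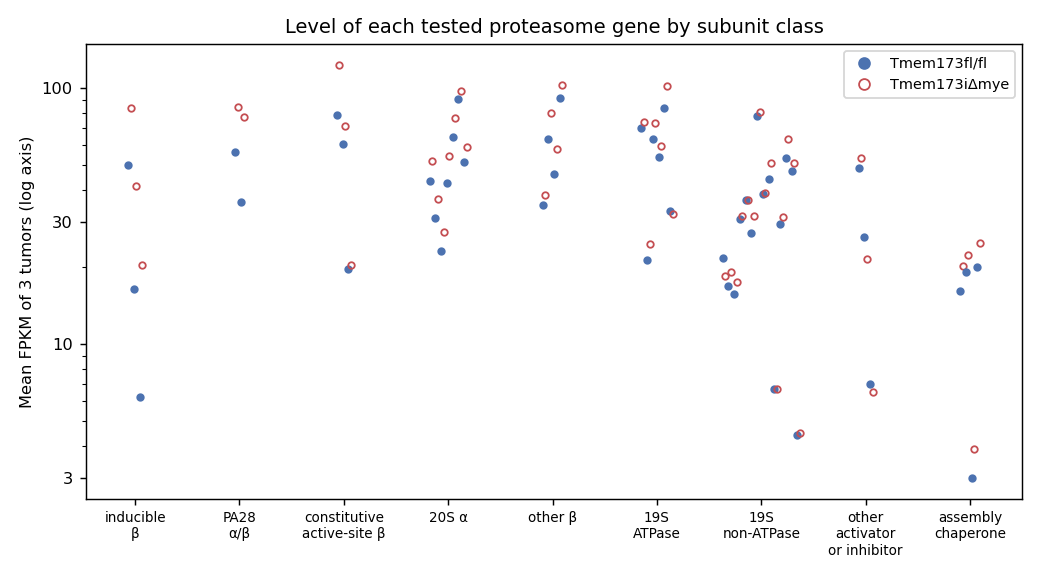
Mean FPKM (log axis) of the tested proteasome genes over the 3 tumors of each group, by subunit class, with filled points for Tmem173fl/fl and open points for Tmem173iΔmye. Psmb5 (101 FPKM over all tumors) is the highest gene and Psmg3 (3.45 FPKM) the lowest.

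Genes that act before and after the immunoproteasome were described by the same counts. In MHC class I peptide processing, which carries proteasome products to the cell surface, 12 of 12 tested genes were above 0 with a median log2 fold change of 0.63, 0 of 12 had p under 0.05, and the median was 0.19 without Tmem173iΔmye replicate 1. B2m, the class I light chain, was at 634, 248 and 591 FPKM in Tmem173fl/fl and at 2441, 466 and 880 FPKM in Tmem173iΔmye tumors (log2 fold change 1.35, SE 0.61). The peptide transporter genes Tap1 (1.30, SE 0.60) and Tap2 (0.91, SE 0.44) had the next lowest p-values. As with Psmb8 and Psmb9, which lie beside them on chromosome 17, both were highest in Tmem173iΔmye replicate 1.

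Of the genes through which interferon-gamma acts, 11 of 12 were tested and 8 of the 11 were above 0, with a median log2 fold change of 0.48, or 0.16 without Tmem173iΔmye replicate 1. Irf9 (0.47, SE 0.15) and Stat2 (0.67, SE 0.29), which act together at the interferon-stimulated response element, had the lowest p-values, both with an unadjusted p under 0.05. Ifng itself, under the filter, had 0, 0 and 2 counts in Tmem173fl/fl and 50, 0 and 3 counts in Tmem173iΔmye tumors, so nearly all of its reads came from the tumor that was highest for the immunoproteasome genes.

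Of 17 listed proteasome partners outside the name pattern, 16 were found, and Paaf1 was not matched by that symbol. Of the 16, 9 were above 0, with a median log2 fold change of 0.013, or -0.0128 without Tmem173iΔmye replicate 1. Zfand5, a proteasome activator that binds ubiquitin, had a log2 fold change of -0.43 (SE 0.14, unadjusted p under 0.05), and its groups did not overlap. Pomp, the maturation factor of the core particle, had 0.56 (SE 0.26), and Ecpas, a proteasome adaptor, had -0.28 (SE 0.15). Of the 6 genes of the NRF1 route, which release and activate this factor, 3 were above 0, with a median of 0.025, and Nfe2l1, which encodes NRF1, had 0.096 (SE 0.16). The lowest p-values were those of Ngly1 (-0.30, SE 0.13), Syvn1 (0.19, SE 0.12) and Sel1l (-0.18, SE 0.16).

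Summed markers of T cells, of natural killer and cytotoxic cells and of epithelium were highest in Tmem173iΔmye replicate 1, as were the inducible genes. Those of the other cell types listed here were highest in another tumor. Single markers did not all follow their sums. By FPKM, Cd3d and Cd3e were highest in Tmem173iΔmye replicate 2, Cd4 in Tmem173fl/fl replicate 1 and Cdh1 in Tmem173fl/fl replicate 2. The other T cell and epithelium markers were highest in Tmem173iΔmye replicate 1. Of 8 T cell markers, 8 were above 0 in log2 fold change, and their sum was 26.8, 10.8 and 14.1 CPM in Tmem173fl/fl and 35.9, 28.3 and 18.2 CPM in Tmem173iΔmye tumors, highest in Tmem173iΔmye replicate 1 and lowest in Tmem173fl/fl replicate 2 as for the 5 genes. The sum of 6 natural killer and cytotoxic cell markers, of which 3 were tested and all 3 were above 0, was 7.32, 2.92 and 4.72 CPM in Tmem173fl/fl and 15.9, 9.67 and 9.96 CPM in Tmem173iΔmye tumors. The sums of this list did not overlap between the groups. Its members Ncr1 and Klrb1c had 9 counts or fewer in every tumor and were not tested. The sums thus rested little on them and cannot be read as natural killer cells alone. Of the tested members Gzma, Gzmb and Nkg7, only Gzmb had groups that did not overlap. Gzmb of this list had a log2 fold change of 1.55 (SE 0.38). Trac of the T cell list had 0.82 (SE 0.35) and Vil1 of the epithelium list 0.35 (SE 0.15). In each the unadjusted p was under 0.05 and the groups did not overlap. Without Tmem173iΔmye replicate 1 the median log2 fold change was 0.50 over the T cell and 0.57 over the tested natural killer and cytotoxic markers. With all tumors these medians were 0.74 and 1.26. Of 7 macrophage and monocyte markers, 4 were above 0, and the sums of 412 to 696 CPM in Tmem173fl/fl and 420 to 671 CPM in Tmem173iΔmye tumors overlapped. Of 5 B cell markers 0 were above 0, and their sum was 116, 18.1 and 2.63 CPM in Tmem173fl/fl and 5.79, 59.9 and 6.53 CPM in Tmem173iΔmye tumors. Of 4 smooth muscle markers 0 were above 0, with a median log2 fold change of -0.59 and sums of 275, 194 and 252 CPM in Tmem173fl/fl and 126, 97.0 and 236 CPM in Tmem173iΔmye tumors, and 1 of them, Des, had an unadjusted p under 0.05. The summed markers of dendritic cells (17.8 to 31.9 and 28.3 to 36.1 CPM), of leukocytes as a whole (107 to 222 and 129 to 191 CPM) and of fibroblasts (1724 to 2196 and 1770 to 2622 CPM) overlapped between Tmem173fl/fl and Tmem173iΔmye tumors. None of these marker lists was at 0 in every tumor. The part of these cells, and of sex, in the levels of the immunoproteasome genes was not tested beyond these values. With sex as a covariate, the log2 fold change of Psmb9 was 1.36, that of Psmb8 0.94 and that of Psme2 0.83, and of these Psme2 alone had an unadjusted p under 0.05.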

How the data were processed

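Total RNA of whole tumors was extracted with TRIzol, and polyA RNA libraries were made with the NEBNext Ultra kit. Per the labels, the submitters' processing notes name CASAVA 1.8, fastp, HISAT2 2.0.5, featureCounts 1.5.0-p3 and DESeq2 1.20.0 with GRCm38. The table deposited by the authors holds raw counts for each gene and FPKM, which are these counts per gene length times a constant of each tumor. The authors' own fold changes and p-values in the same table, and their group means, were not used. Whether counting used strand is not given in the sources used here.

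Tests on the counts used the quasi-likelihood F test of edgeR 4.0.16 under R 4.3.3, with TMM library scaling, no term but the group, and p-values adjusted by Benjamini-Hochberg over 16426 genes, those whose FPKM averaged 0.5 or more. Fold changes are given for Tmem173iΔmye relative to Tmem173fl/fl. SE was taken as the size of the log2 fold change over the root of F. Percentages of catalytic pairs were compared by exact permutation. Alternatives were DESeq2 1.42.0, limma 3.58.1 (voom, or log2(FPKM + 1) and log2(FPKM + 0.1)), other scalings and filters, the replicate number as a block, sex as a covariate and leaving out tumors. Leaving out both replicate 1 tumors and adding the counts of Psme2b were chosen after the values were seen.

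Named with full values were the 8 inducible, PA28 and constitutive active-site genes and other proteasome genes with p under 0.05, then the extremes of each class by fold change and level, those under the filter, and up to 3 genes of each pathway list with the lowest p. Some genes that this rule names, and 1 pathway list, are not reported here. Nfe2l1, Ifng, Psme2b, Psmc2 and Psmd1 in each tumor, Psmd11, Psmd13, Des, Gzmb, Trac and Vil1 were named after their values were seen. The genes and lists were chosen with earlier results of these data known. P-values measure only the spread between these samples. Depth was 15329810 to 16533732 counts per tumor. Scripts were tested on simulated data.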

Additional observations from a re-analysis of the deposited data

How the results depend on the processing

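No proteasome gene had an adjusted p under 0.05 in any setting tried (edgeR, DESeq2, limma, and every left-out tumor). The number past both limits, 2 with edgeR, was 1 with DESeq2, 1 with limma voom, 0 with limma on log2(FPKM + 1), 1 on log2(FPKM + 0.1), 0 with sex as a covariate and 1 without both replicate 1 tumors, and 0 to 3 when each tumor was left out (0 without Tmem173fl/fl replicate 2, Tmem173fl/fl replicate 3 or Tmem173iΔmye replicate 1, and 3 without Tmem173iΔmye replicate 2). Without the filter on low values it was 3 (Psmb8, Psmb9 and Psme2), and 6 proteasome genes had an unadjusted p under 0.05. In this setting 6 of 30939 genes of the table, 0 of them proteasome genes, passed an adjusted p under 0.05, against 0 of 16426 with the filter. The share of all genes with an unadjusted p under 0.05 without the filter is not reported here. The rise thus cannot be read as particular to the proteasome genes, and its cause was not tested. Leaving out each tumor, the median log2 fold change of the 5 inducible and PA28 genes ranged from 0.117 to 1.39, that of Psmb5, Psmb6 and Psmb7 from 0.0018 to 0.33, and that of the other tested members from 0.014 to 0.23. The percentage differences ranged from -3.7 to 7.8 for the beta5 pair, with -0.8 without Tmem173fl/fl replicate 2, from 4.14 to 14.8 for the beta1 pair and from 3.21 to 10.6 for the beta2 pair. Without both replicate 1 tumors, the median of the 5 genes was 0.40. The log2 fold change of Psmb7 ranged from -0.11 (without Tmem173iΔmye replicate 1) to 0.16 when each tumor was left out and turned to -0.17 without both replicate 1 tumors.

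Same-numbered tumors correlated at 0.31, 0.0085 and 0.15 in their deviations from the group means. The first of these was the highest of all pairings, but not every tumor correlated best with its own number. With so few tumors per group, these values cannot decide whether same-numbered tumors share more than a number. With the replicate block, 6 proteasome genes had an unadjusted p under 0.05 (Psmb8, Psmb9, Psmb10, Psme1, Psme2 and Psmb5) against 3 without it, 2 passed both limits, and the log2 fold change of Psmb9 was 1.47 (adjusted p = 0.24 from edgeR). The shares of all genes called with the block are not reported here, so these counts cannot be read as particular to the proteasome genes. At this depth, counts of 3 or fewer, as for Ifng in 5 tumors, give no usable fold.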
